A study of Mus musculus with 32 samples.

Results

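Tumours irradiated with carbon ions were compared directly with tumours irradiated with photons. The comparison took the 8 libraries labelled as carbon-ion treated and the 8 labelled as photon treated, which are 16 of the 32 libraries of the study, and ran across all expressed genes. Every library held the RNA of tumour tissue of KPC36, a mouse (Mus musculus) line that the labels call malignant, and the groups are set apart by their treatment label. KPC stands for a mouse model of pancreatic cancer, but the genotype of KPC36, the host strain, the age of the mice, the implantation site and the dose are not given in the sources used here. Each beam had its own arm with 8 untreated tumours, and these 16 controls serve below as a background measured the same way. Tumours were taken on days 4 and 7, and the day of a single library is not part of the labels used here. Of the carbon-irradiated libraries 3 have titles starting with D and 5 with M, whereas all 8 photon-irradiated titles start with M. The meaning of the letters is not stated. Beam and arm therefore cannot be told apart in the direct comparison. The labels do not say which libraries come from separate animals, so the p-values measure only the spread between these samples.

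Carbon ions are heavy charged particles that deposit energy densely along their track and leave clustered DNA breaks, whereas photons ionise sparsely. Either kind of damage can activate p53, a transcription factor that switches on genes of cell cycle arrest and death. Irradiated tumours are also known to draw in macrophages, monocytes and neutrophils, the myeloid cells that clear dying cells. In bulk tissue, fewer cells of a type and less RNA per cell cannot be told apart.

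The libraries held 22777950 to 71645903 estimated counts after carbon ions and 13891863 to 48229979 after photons. Keratins of simple epithelium, which mark pancreatic tumour cells, were abundant in all 16 libraries. Krt8 lay between 764 and 1540 counts per 1000000 counts (CPM), Krt18 between 633 and 1194 and Krt19 between 233 and 960, and none of these passed the test between the beams. Marker genes of skeletal muscle varied most. The summed level of the 20 muscle markers ran from 37.04 to 9964 CPM after carbon ions, with a median of 913, and from 23.9 to 1456 CPM after photons, with a median of 81.8. In the controls the medians were 862 CPM in the carbon-ion arm and 2074 CPM in the photon arm. Median log2 CPM deviations within a group were 0.37 after carbon ions and 0.30 after photons. The first principal component held 32.5% of the variance, with carbon-irradiated replicate 5 and photon-irradiated replicate 3 at its ends.

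After carbon ions, the macrophage receptor gene Msr1, the granulocyte factor gene Cebpe, the p53 target Ccng1, the lysosomal genes Creg1 and Atp6v0b, the mitochondrial gene mt-Co3 and the dynein light chain gene Dynlt1b were higher than after photons. Piezo2, Sptan1, Dock9 and Plcg1 were among the lower genes. In all, 57 of 19232 genes tested (0.296%) had an adjusted p under 0.05 in edgeR's two-sided quasi-likelihood test. Of these, 39 (0.203% of those tested) were higher after carbon ions and 18 (0.0936%) were lower. The change was over 2-fold for 16 of the higher and 4 of the lower genes. A further view without adjustment gave 4093 genes (21.3%) with p under 0.05, 2623 higher (13.6%) and 1470 lower (7.64%). A fold change above 0 was found for 52.4% of all genes. The groups did not overlap at all for 31 genes (0.161%), 20 higher (0.104%) and 11 lower (0.0572%), and 14 of the 31 were among the 57.

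Single libraries moved the count of 57. It was 4 without carbon-irradiated replicate 1 and 857 without carbon-irradiated replicate 3, the library with the most muscle RNA, and it lay between 5 and 30 without any 1 photon-irradiated library. With the muscle level as a term in edgeR's model 0 genes passed, with 3418 at an unadjusted p under 0.05. The log2 fold changes in that model were 0.93 for Dynlt1b, 0.89 for Msr1, 1.42 for Cebpe, 0.74 for Creg1 and -1.18 for Piezo2, beside 0.96, 0.93, 1.60, 0.72 and -0.997 without the term. Without both libraries at the ends of the first component 0 passed, with 2466 at an unadjusted p under 0.05. Upper-quartile scaling gave 97 genes (0.504%) with the opposite majority, since 43 (0.224%) were higher and 54 (0.281%) lower. A fit of all 32 libraries, which share 1 estimate of the spread, gave 1041 genes (5.08%) for the same contrast, 726 higher (3.55%) and 315 lower (1.54%). DESeq2 on the 16 libraries gave 1173 genes (6.1%), 775 higher (4.03%) and 398 lower (2.07%), and all 57 were among them. With M-titled libraries alone 57 genes passed, of which 26 were among the original 57. Dynlt1b, Msr1, Cebpe, Ccng1 and Creg1 passed there, whereas Lyz2, Ccr1, Clec4n, Siglecf and Piezo2 did not, with adjusted p values from 0.0503 to 0.0568. Dynlt1b, Msr1 and Cebpe passed in each of the 16 fits that left out 1 library, Ccng1 in 14, Creg1 in 10 and Ccr1 in 9. The other passing genes chosen by the naming rule passed in 2 to 8 of these fits. Among them were Piezo2 in 8, Lyz2, Dock9 and Plcg1 in 6, Atp6v0b and mt-Co3 in 5, Sptan1 in 3 and S100a14 in 2.

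**Figure D1:**
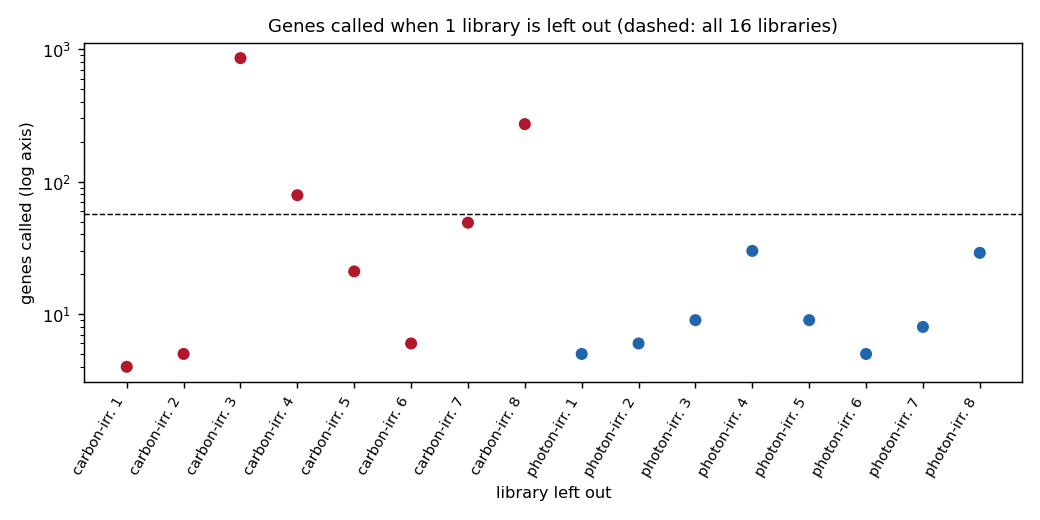
Number of genes with an adjusted p under 0.05 (log axis) when the library on the horizontal axis is left out of the comparison, with the value of 57 for all 16 libraries as a dashed line. Leaving out carbon-irradiated replicate 3 or 8 raised the count to 857 or 272, and leaving out carbon-irradiated replicate 1 lowered it to 4.

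The macrophage and monocyte genes had higher median levels after carbon ions, and Msr1 was the list member that passed. Msr1 (chromosome 8, 39581685 to 39642673, mm10) encodes the class A scavenger receptor by which macrophages take up modified lipoproteins and debris. Its level ran from 27.6 to 54.5 CPM after carbon ions, with a median of 46.1, and from 17.4 to 30.7 CPM after photons, with a median of 21.6. All carbon-irradiated libraries but 1 lay above every photon-irradiated library. The log2 fold change was 0.93 with a standard error (SE) of 0.14 and an adjusted p of 0.0135. The controls had medians of 27.03 and 29.5 CPM, so the carbon-irradiated median was the highest of the 4 groups. The difference between the arms after irradiation, less that in the controls, was 1.21 with an adjusted p of 0.0564, which did not pass.

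Other receptors and enzymes of phagocytes passed with Msr1. Lyz2, the lysozyme of macrophages and granulocytes (chromosome 10, 117277331 to 117282321), ran from 407 to 789 CPM after carbon ions, with a median of 595, and from 169.8 to 433 CPM after photons, with a median of 285. Only the lowest carbon-irradiated library fell inside the photon-irradiated range, and the log2 fold change was 0.92 with an SE of 0.17 and an adjusted p of 0.0416. Ccr1, a receptor for inflammatory chemokines, had medians of 36.99 and 21.5 CPM and rose by 0.77 on the log2 scale (adjusted p of 0.0318). Both receptors of fungal sugars on myeloid cells rose: Clec4n, or dectin-2, by 0.81 and Clec7a, or dectin-1, by 0.79, each with an adjusted p of 0.0416. For Clec4n the groups met at 23.6 CPM without crossing, since its range was 23.6 to 38.9 CPM after carbon ions and 11.6 to 23.6 CPM after photons. Siglecf, a sialic acid receptor known from eosinophils and some macrophages and neutrophils, ran from 4.04 to 8.22 CPM against 1.89 to 3.75 CPM, without overlap, with a log2 fold change of 1.03 (SE 0.19, adjusted p of 0.0416). Cybb, the catalytic subunit of the phagocyte oxidase, Fcgr3, a receptor for antibody, and Mpeg1, a pore-forming protein of phagocytes, rose by 0.86, 0.79 and 0.55, and the ranges of Cybb and Mpeg1 did not overlap. Srgn, the core protein of the granules of blood cells, and Bcl2a1b, a survival gene of myeloid cells with near-identical copies whose reads may be divided uncertainly, rose by 0.98 and 1.01.

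Between the untreated controls none of these genes passed, but they were picked from those that passed between the irradiated groups. The contrast therefore describes these genes only. Among Msr1 and the 10 other phagocyte genes just named, the log2 difference between carbon-ion and photon controls lay between -0.41 for Srgn and 0.31 for Cybb, with adjusted p values from 0.161 to 0.968. Control medians, carbon-ion arm first, were 442 and 440 CPM for Lyz2, 25.8 and 25.9 CPM for Clec4n and 5.20 and 5.52 CPM for Siglecf. For Msr1, Lyz2, Ccr1, Clec4n, Clec7a, Siglecf, Srgn and Bcl2a1b, the photon-irradiated median lay below both control medians and the carbon-irradiated median above both. The difference between the irradiated groups less that between the controls was largest for Srgn, at 1.39, and Msr1, at 1.21, and smallest for Cybb, at 0.55, and Mpeg1, at 0.36. Adjusted p values of this difference of differences ran from 0.0564 for Msr1 to 0.328 for Mpeg1, so none of these passed.

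**Figure D2:**
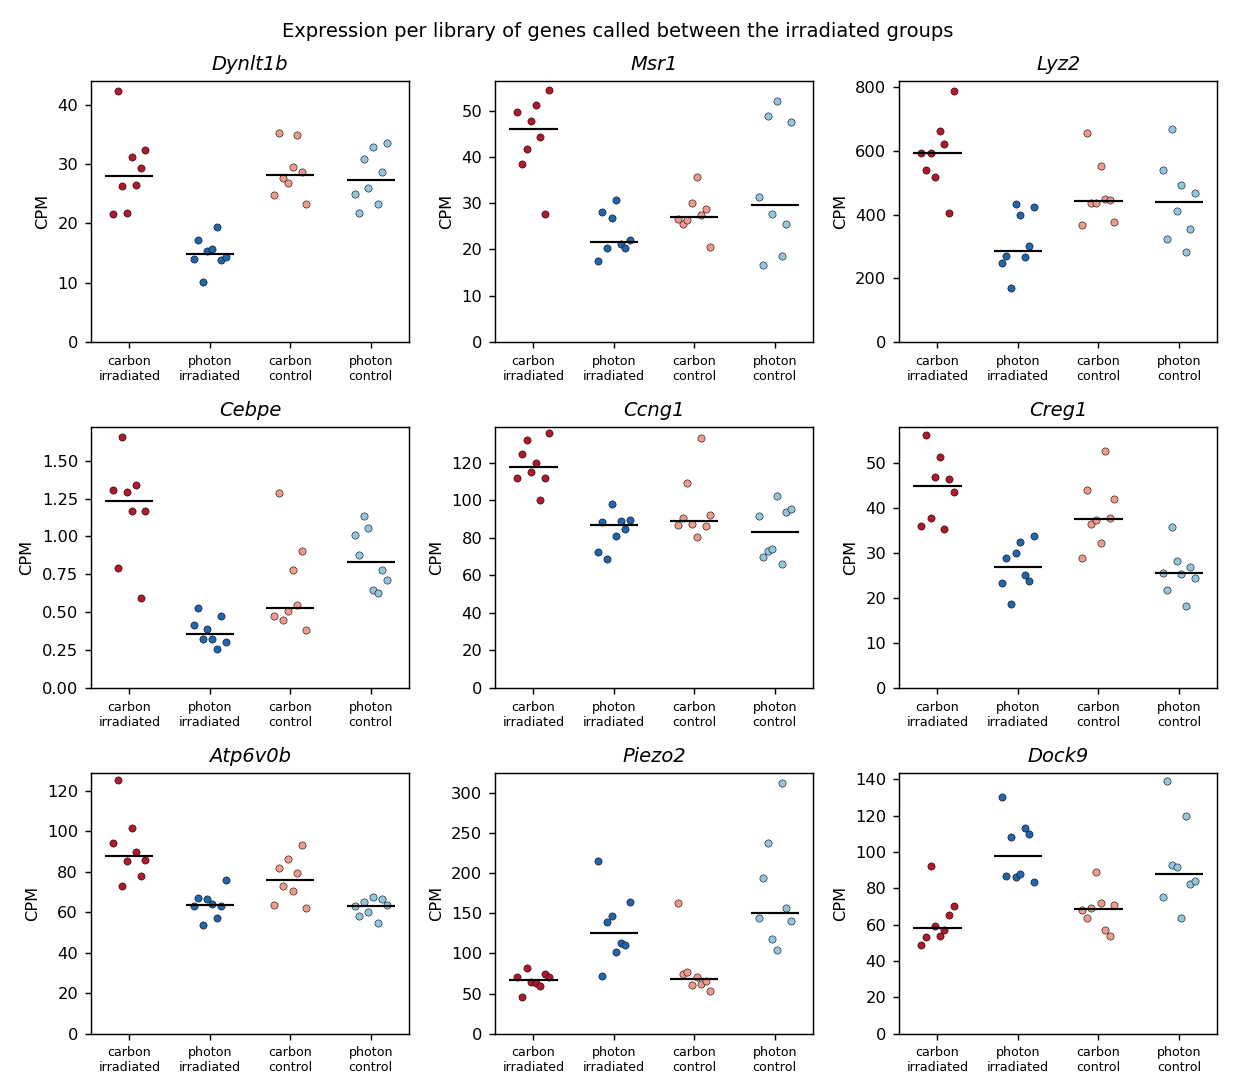
Level in CPM (linear axes from 0) of 9 genes that passed between the irradiated groups, in the 8 libraries of each of the 4 groups, with the median as a line. Dynlt1b, Cebpe, Ccng1 and Creg1 show no overlap between the irradiated groups, and Creg1, Atp6v0b, Piezo2 and Dock9 passed between the controls as well.

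Across the 22 macrophage and monocyte markers tested, 1 passed, 17 were higher and 0 lower at an unadjusted p under 0.05, and the median log2 fold change was 0.63, beside 0.02 over all genes tested. All 22 had a fold change above 0. Trem2, a lipid-sensing receptor of tumour macrophages, had medians of 13.2 CPM after carbon ions and 7.49 after photons (adjusted p of 0.0690). The complement genes C1qa, C1qb and C1qc, which mark tissue macrophages, had log2 fold changes of 0.59, 0.64 and 0.66 with adjusted p values from 0.0724 to 0.0862. In the fit of all 32 libraries 9 of the 22 passed. In the controls the median of the list was -0.10. Muscle RNA moved with the groups here: with the muscle level as a term the median of the list was 0.45 and 7 members were higher at an unadjusted p under 0.05, and its part in the result was not tested further.

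Of the granulocyte genes, Cebpe passed. Cebpe, the transcription factor of late granulocyte maturation (chromosome 14, 54710360 to 54712174), was a scarce transcript. It ran from 0.595 to 1.65 CPM after carbon ions, with a median of 1.23, and from 0.257 to 0.527 CPM after photons, with a median of 0.357. The groups did not overlap, and the log2 fold change was 1.60 with an SE of 0.24 and an adjusted p of 0.0146. The control medians were 0.528 CPM in the carbon-ion arm and 0.828 CPM in the photon arm, so the order of the arms was opposite there. The difference of differences was 1.96 with an SE of 0.34 and an adjusted p of 0.0119, and it passed. This test of the difference of differences depended on the libraries: with M-titled libraries alone it called 1 gene (3013 at an unadjusted p under 0.05), and none of the 16 genes called with all libraries, Cebpe, Dynlt1b, Gm49980, Ctsc, Tnip3 and Cbx7 among them.

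Of 15 neutrophil markers 10 had enough counts to be tested, and these were higher by a median log2 fold change of 0.94. Besides Cebpe no other marker passed, and 7 were higher at an unadjusted p under 0.05. S100a8 and S100a9, the subunits of calprotectin, had medians of 6.69 and 4.67 CPM after carbon ions and 3.31 and 1.70 CPM after photons, with adjusted p values of 0.0714 and 0.0564. Retnlg, a neutrophil resistin, had medians of 2.05 and 0.349 CPM (adjusted p of 0.0846). The mean log2(CPM + 1) over the list ran from 2.64 to 3.06 after carbon ions and from 1.81 to 2.52 after photons, so the groups did not overlap. The control medians of this mean were 2.68 in the carbon-ion arm and 2.74 in the photon arm, close to the carbon-irradiated median of 2.73. With the muscle level as a term the median log2 fold change of the list was 1.08.

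**Figure D3:**
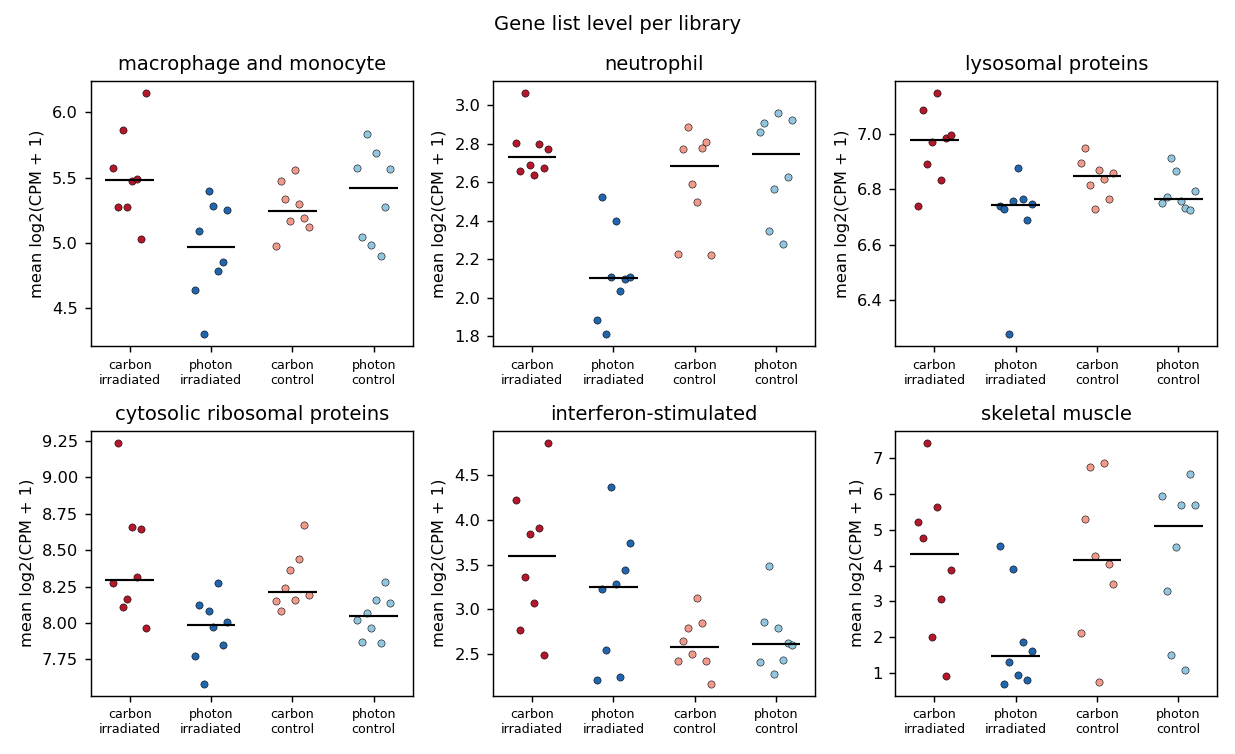
Mean log2(CPM + 1) over the members of 6 gene lists in the 8 libraries of each group, with the median as a line. For the neutrophil list all carbon-irradiated libraries (2.64 to 3.06) lie above all photon-irradiated libraries (1.81 to 2.52), whereas the interferon-stimulated and skeletal muscle lists spread widely within both irradiated groups.

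Antigen presentation genes pointed the same way without a member passing. All 10 MHC class II genes had a fold change above 0, with a median of 0.52, and 7 were higher at an unadjusted p under 0.05. Cd74, the invariant chain that guides class II molecules, ran from 294 to 583 CPM after carbon ions, with a median of 424, and from 208 to 409 CPM after photons, with a median of 277 (adjusted p of 0.0846). The control medians of Cd74 were 439 and 436 CPM. Among 16 genes of MHC class I presentation the median was 0.41 and 7 were higher at an unadjusted p under 0.05. B2m, the light chain of every class I molecule, had medians of 256 and 172 CPM, and Calr, a chaperone of class I folding, 546 and 413 CPM, with adjusted p values of 0.103 and 0.0714. With the muscle level as a term the list medians were 0.45 for class II and 0.27 for class I.

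Interferon-stimulated genes differed in median but spread too widely within each group to be told apart. Over 22 genes the median log2 fold change was 0.53 and 0 had an unadjusted p under 0.05. Rsad2, an antiviral enzyme induced by interferon, ran from 1.80 to 25.9 CPM after carbon ions and from 1.08 to 9.08 CPM after photons. Oas2, a sensor of double-stranded RNA, ran from 1.31 to 28.9 CPM and from 0.824 to 9.71 CPM. Both genes thus varied more among libraries of 1 group than between the groups. Among lymphocyte markers, the median was 0.07 over 17 T cell markers tested and 0.14 over 9 cytotoxic and NK cell markers, with 0 members at an unadjusted p under 0.05 in either direction. Of 11 B and plasma cell markers only 3 had enough counts to be tested, with a median of 0.63, 0 passing and 2 higher at an unadjusted p under 0.05. The 6 mast cell markers tested had a median of -0.33, with 0 passing, and of -0.72 between the controls. Among 21 NF-kB targets and inflammatory cytokines 0 passed and 6 were higher at an unadjusted p under 0.05, among them Tnf (medians 5.85 and 3.26 CPM) and the neutrophil attractant Cxcl1 (14.3 and 9.34 CPM). Tnip3, an inhibitor of NF-kB signalling from the same list, had medians of 14.1 and 9.59 CPM (adjusted p of 0.0895). It was lower in the carbon-ion arm between the controls, by -0.60, and the difference of differences of 1.29 passed with an adjusted p of 0.0320.

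**Figure D4:**
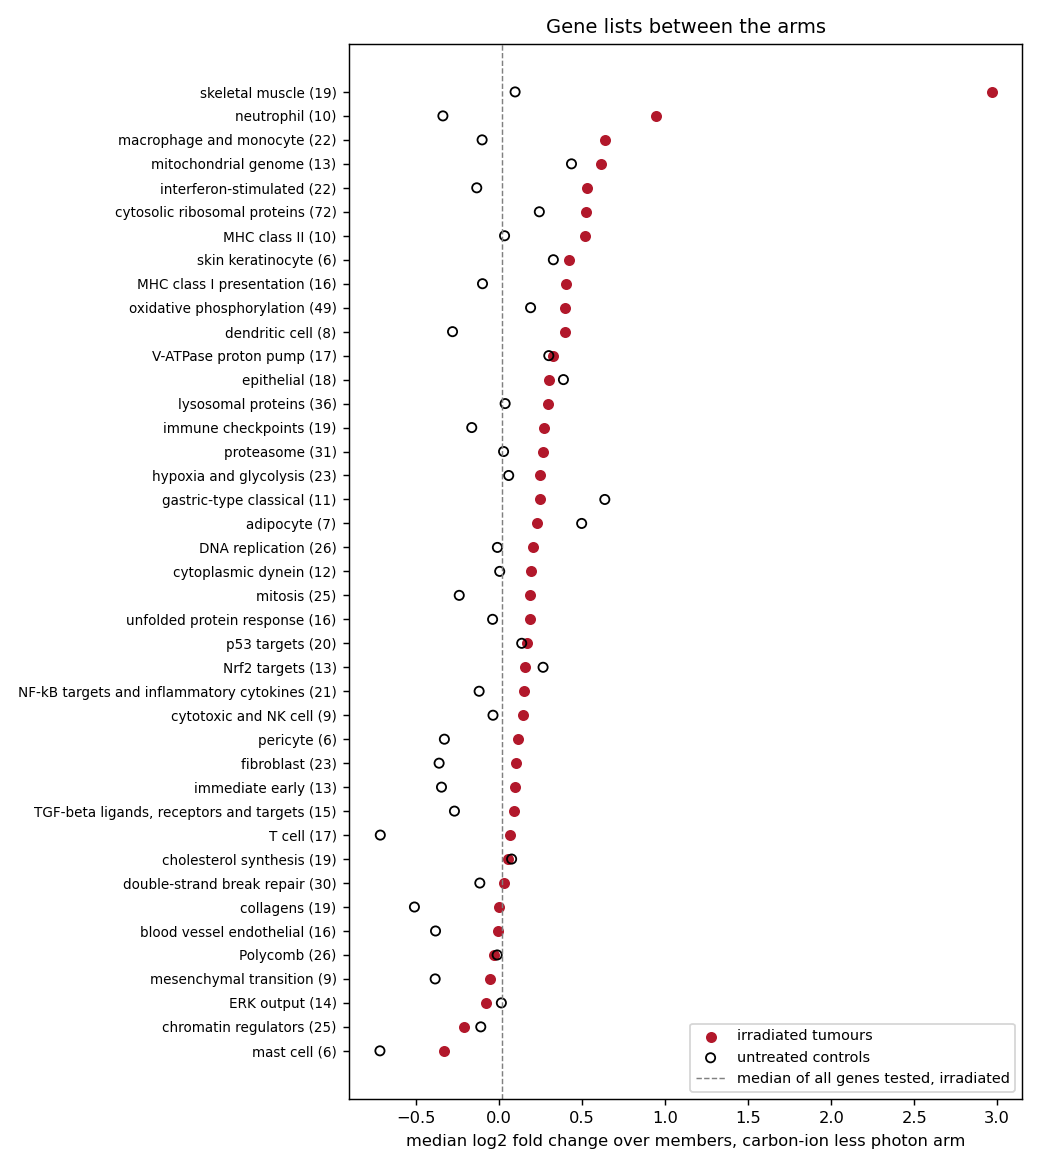
Median log2 fold change over the tested members of each gene list (number of members in brackets), carbon-ion less photon arm, in the irradiated tumours (filled) and the untreated controls (open), with the median of all genes tested as a dashed line. The macrophage, neutrophil and MHC lists lie to the right in the irradiated tumours and near or below 0 in the controls, the mast cell list lies to the left in both, whereas mitochondrial, ribosomal, V-ATPase and epithelial lists lie to the right in both.

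The p53 targets differed at Ccng1. Promoter windows of Ccng1, the member that passed, and of Cdkn1a, the best known target, are shown from RefSeq (GRCm38.p6), and the capitals mark matches to the p53 half-site. The Ccng1 window is chr11:40755440-40755493 on the minus strand and the Cdkn1a window chr17:29090884-29090959 on the plus strand.
Ccng1: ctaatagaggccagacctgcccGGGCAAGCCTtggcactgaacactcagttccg
Cdkn1a: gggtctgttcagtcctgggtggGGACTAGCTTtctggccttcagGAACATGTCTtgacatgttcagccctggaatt
The half-site, which reads the same on both strands as a pattern, was found in a promoter of 7 of the 15 p53 targets with an entry and of 9.55% of all 27025 genes, or in 8.36% of all 32851 promoters of the same length. Log2 fold changes were 0.51 for Ccng1 and 0.54 for Cdkn1a. Among the other targets with a match they were 0.02 for Polk, 0.04 for Mdm2, 0.09 for Aen, 0.17 for Bax and 0.20 for Ei24. A match is a description of these letters.

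Ccng1 encodes cyclin G1, which feeds back on the p53 inhibitor Mdm2. It ran from 100.2 to 136 CPM after carbon ions, with a median of 118, and from 68.7 to 98.3 CPM after photons, with a median of 86.7. The groups did not overlap, with a log2 fold change of 0.51, an SE of 0.08 and an adjusted p of 0.0146. The controls lay at medians of 88.9 and 82.9 CPM. The difference of differences for Ccng1 was 0.30 with an adjusted p of 0.367, so the excess over the control difference was not detected.

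The other p53 targets did not pass. Cdkn1a, the cell cycle inhibitor p21, ran from 26.6 to 129 CPM after carbon ions, with a median of 83.2, and from 25.1 to 66.7 CPM after photons, with a median of 56.5 (log2 fold change of 0.54, SE 0.30, adjusted p of 0.308). Of the carbon-irradiated libraries, 5 lay above every photon-irradiated library, and the control medians were 29.9 and 25.97 CPM. Eda2r, a death receptor of the TNF family, had medians of 9.63 and 5.25 CPM (log2 fold change of 0.93, adjusted p of 0.0714). Phlda3, an inhibitor of Akt, had medians of 60.4 and 42.2 CPM (0.40, adjusted p of 0.0857). Both Eda2r and Phlda3 passed in the fit of all 32 libraries. Mdm2 was at medians of 57.1 and 58.4 CPM, with a log2 fold change of 0.04 (SE 0.08). Over all 20 targets the median was 0.17, with 1 passing, 6 higher and 0 lower at an unadjusted p under 0.05. Between the controls the median of the list was 0.14, with 1 passing. Ier5, an early gene of the stress and radiation response that was in none of the lists, rose by 0.40 (SE 0.08, adjusted p of 0.0416).

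Of 36 lysosomal genes Creg1 passed, and of 17 genes of the lysosomal proton pump Atp6v0b passed, both higher after carbon ions. The promoters of several of these genes hold the E-box CACGTG, the core of the element bound by the lysosome regulator TFEB, and 4 windows are shown from RefSeq (GRCm38.p6) with each E-box in capitals. They are chr4:117887330-117887387 on the minus strand for Atp6v0b, chr8:13159078-13159160 on the plus strand for Lamp1, chrX:134601172-134601254 on the minus strand for Gla and chr8:3500426-3500501 on the plus strand for Mcoln1. Atp6v0b is shown as the member that passed, and the others for their repeated E-boxes.
Atp6v0b: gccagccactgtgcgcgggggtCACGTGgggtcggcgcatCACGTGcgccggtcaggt
Lamp1: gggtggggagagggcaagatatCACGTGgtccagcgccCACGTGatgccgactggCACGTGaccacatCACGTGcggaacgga
Gla: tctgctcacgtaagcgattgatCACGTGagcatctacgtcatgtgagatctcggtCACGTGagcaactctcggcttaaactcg
Mcoln1: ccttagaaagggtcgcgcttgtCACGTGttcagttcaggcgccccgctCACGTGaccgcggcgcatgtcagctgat
The E-box, its own reverse complement, was in a promoter of 4 of 11 pump genes, 10 of 28 lysosomal genes and 6 of 15 p53 targets with an entry, beside 8.09% of all 27025 genes. Of these pump and lysosomal genes, Atp6v0d1 and Atp6v0e have no E-box wholly before the start. Of the 12 that do, 9 had a log2 fold change above 0 and 3 below, from -0.15 for Sgsh to 0.53 for Atp6v0b, with 0.33 for Lamp1, 0.46 for Gla and -0.14 for Mcoln1. In the full lists, 32 of 36 lysosomal genes and 16 of 17 pump genes were above 0. The median of the 12 was 0.26, beside 0.29 over all lysosomal and 0.33 over all pump genes. Only Atp6v0b passed among the 12. The longer CLEAR element, which contains the E-box, was in none of these and in 0.326% of all 32851 promoters. Creg1 has an entry, and its window holds no E-box.

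Creg1 (chromosome 1, 165763746 to 165775308) encodes a glycoprotein of the lysosome. It ran from 35.3 to 56.2 CPM after carbon ions, with a median of 44.998, and from 18.7 to 33.8 CPM after photons, with a median of 26.9. The groups did not overlap, and the log2 fold change was 0.72 with an SE of 0.12 and an adjusted p of 0.0318. The same gene differed between the controls, with medians of 37.5 and 25.5 CPM and a log2 difference of 0.60 (adjusted p of 0.00722). Atp6v0b, a membrane subunit of the V-ATPase, had medians of 87.8 and 63.6 CPM (log2 fold change of 0.53, SE 0.10, adjusted p of 0.0416), and it differed between the controls as well, by 0.30.

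Of 17 V-ATPase genes, 13 were higher at an unadjusted p under 0.05 and 0 lower, with a median of 0.33. The median between the controls was 0.30, with 9 of 17 passing there. Among 36 lysosomal genes the median was 0.29 and 23 were higher at an unadjusted p under 0.05, but the median between the controls was 0.04. The cathepsin genes Ctsh and Ctsc, which encode lysosomal proteases, had medians of 129 and 276 CPM after carbon ions and 88.8 and 211 CPM after photons, with adjusted p values of 0.0549 and 0.0578. Ctsc stood the other way between the controls, at -0.22, and its difference of differences of 0.66 passed with an adjusted p of 0.0320. Lysosomal genes are also expressed in macrophages, whose markers moved in the same direction, and the part of either in the other was not tested.

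Dynlt1b, a light chain of the dynein motor, had the smallest p among named protein-coding genes higher after carbon ions. It lies at chromosome 17, 6430112 to 6436296. It ran from 21.6 to 42.3 CPM after carbon ions, with a median of 27.9, and from 10.1 to 19.4 CPM after photons, with a median of 14.8. The groups did not overlap, and the log2 fold change was 0.96 with an SE of 0.14 and an adjusted p of 0.0135. Control medians were 28.1 and 27.3 CPM, so the photon-irradiated libraries were the low group. The difference of differences was 0.90 with an adjusted p of 0.0384, and it passed.

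Dynlt1b has near-identical copies nearby, among which reads may be divided uncertainly. Dynlt1f had medians of 26.96 and 22.4 CPM and Dynlt1a of 5.53 and 4.29 CPM, with adjusted p values of 0.151 and 0.157. Dynlt1c was at medians of 4.29 and 4.36 CPM. Summed over the copies, the level ran from 55.4 to 113 CPM after carbon ions and from 35.4 to 56.7 CPM after photons, with medians of 65.4 and 45.03. Control medians of the sum were 67.9 and 65.6 CPM. The sum thus kept the order seen for Dynlt1b, with slight overlap of the irradiated groups. Dync1h1, the heavy chain of the same motor and a far longer gene, had a log2 fold change of -0.30 (adjusted p of 0.0872).

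Of the genes of energy metabolism, mt-Co3 and Cox7b passed. mt-Co3, a cytochrome oxidase subunit encoded by the mitochondrial genome, ran from 1123 to 3455 CPM after carbon ions, with a median of 2039, and from 758 to 1294 CPM after photons, with a median of 955. All carbon-irradiated libraries but 2 lay above the photon-irradiated range, and the log2 fold change was 1.09 with an SE of 0.20 and an adjusted p of 0.0416. mt-Co3 overlaps mt-Atp6, so reads in the overlap may be divided uncertainly between them. Cox7b, a nuclear-encoded subunit of the same oxidase, rose by 0.84 (adjusted p of 0.0416), with medians of 91.1 and 49.8 CPM. Both genes differed between the controls too, by 0.80 and 0.96, and both passed there.

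Of 49 nuclear genes of oxidative phosphorylation, all had a fold change above 0, with a median of 0.39, and 37 were higher at an unadjusted p under 0.05. All 72 cytosolic ribosomal protein genes had a fold change above 0, with a median of 0.52, and 68 were higher at an unadjusted p under 0.05, though 0 passed. Rps18, a protein of the small subunit, had medians of 443 and 291 CPM, with an adjusted p of 0.0714. In the fit of all 32 libraries 46 of the 72 passed. The medians between the controls were 0.19 for oxidative phosphorylation and 0.24 for ribosomal proteins. There 12 of 49 and 27 of 72 members passed as higher in the carbon-ion arm, and 0 and 1 as lower. Proteasome subunits had a median of 0.26 and 15 of 31 were higher at an unadjusted p under 0.05. Their median between the controls was 0.03. Without both libraries at the ends of the first component the proteasome median was 0.15, with 4 higher at that threshold. With the muscle level as a term it was 0.24, with 6 higher.

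Ribosomal and respiratory chain genes are short, and gene length moved with the difference between the arms. Genes with under 1 kb of exon had a median log2 fold change of 0.16, and genes with over 8 kb a median of -0.12. The exonic length had a median of 2882 bases over the genes tested, 1612 over the genes higher after carbon ions and 5703 over those lower. The controls gave 0.10 for the shortest and -0.08 for the longest class, in the same order. With the length trend removed from each library, 40 genes passed (0.216%), 36 of them among the 57, 31 higher and 9 lower. Plcg1, Sptan1, Igf2bp1, Bcl9, Plce1, Adgrl3 and Shisa6 among the lower genes, and Scarna6, S100a14, Srgn, Bcl2a1b and Fcgr3 among the higher, then no longer passed, with adjusted p values from 0.0542 to 0.109, and Gm49980 had no length and was not tested. Some of these kept nearly the same log2 fold change, such as Shisa6 at -1.52, S100a14 at 1.65 and Srgn at 0.94, whereas Sptan1 was at -0.23 and Plce1 at -0.38. The median was 0.44 for ribosomal proteins and 0.30 for oxidative phosphorylation, and the macrophage and neutrophil medians were 0.58 and 0.85.

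**Figure D5:**
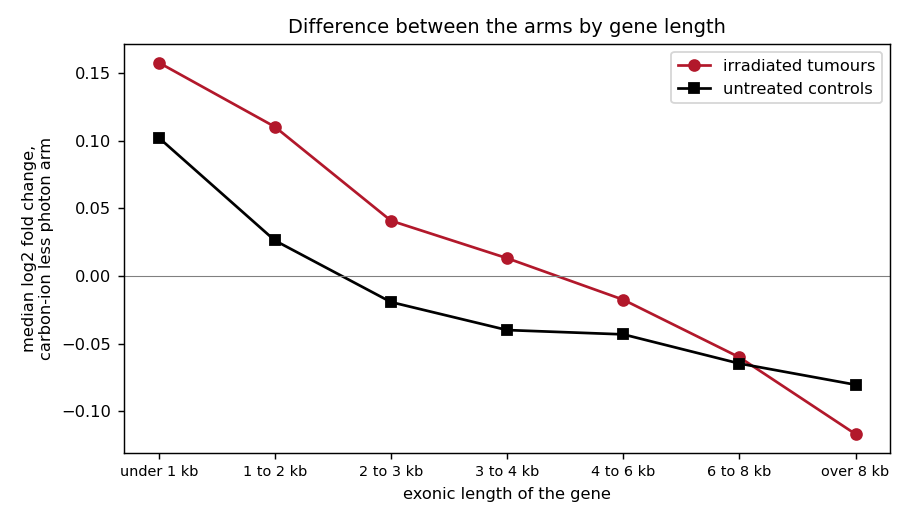
Median log2 fold change, carbon-ion less photon arm, of genes in 7 classes of exonic length, in the irradiated tumours and in the untreated controls. The median falls from 0.16 to -0.12 with length in the irradiated tumours and from 0.10 to -0.08 in the controls.

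Small nucleolar and Cajal body RNAs, which guide the modification of ribosomal and spliceosomal RNA, passed in few cases between the irradiated groups and in many between the controls. Of 54 such genes tested 4 passed, all higher after carbon ions, and 53 had a fold change above 0, with a median of 1.29. Scarna6, which overlaps Atg16l1, had medians of 14.4 and 3.98 CPM (log2 fold change of 1.92, SE 0.39, adjusted p of 0.0416), and Scarna10 of 202 and 66.0 CPM (1.80). Between the controls the median over 50 of these genes was 1.71 and 32 passed. These RNAs carry no poly(A) tail, and the libraries were made with an mRNA kit. Whether their counts come from these RNAs or from overlapping genes was not tested.

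S100a14 and Igsf8 passed as well. S100a14, an epithelial calcium-binding protein, had medians of 13.2 and 3.12 CPM (log2 fold change of 1.72, SE 0.36, adjusted p of 0.0474), and it differed between the controls by 1.34. Igsf8, a surface protein that partners tetraspanins, rose by 0.55 with medians of 82.8 and 55.3 CPM. Among 18 epithelial markers tested 0 passed and 6 were higher at an unadjusted p under 0.05, with a median of 0.30. The junction gene Cldn7 had medians of 6.08 and 2.14 CPM (adjusted p of 0.0559). Epcam, a surface marker of epithelium, ran from 18.3 to 91.4 CPM and from 16.8 to 75.2 CPM, with an adjusted p of 0.308. The median of the epithelial list between the controls was 0.39, with 5 members passing.

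Of the 18 genes lower after carbon ions, Piezo2 had the smallest p among named genes with a mean log2 CPM of at least 2. Piezo2, a mechanically gated ion channel, ran from 45.4 to 81.3 CPM after carbon ions, with a median of 67.5, and from 72.5 to 215 CPM after photons, with a median of 126. The ranges overlapped at their edges, and the log2 fold change was -0.997 with an SE of 0.18 and an adjusted p of 0.0416. Controls stood at medians of 68.5 and 151 CPM, so the arms differed by -1.15 without irradiation. Igf2bp1, an RNA-binding protein of fetal tissue and tumours, had medians of 3.31 and 6.91 CPM (-0.99, SE 0.20) and also differed between the controls, by -1.41. Mex3a, another RNA-binding protein, and Tmem44 followed, with values of -0.41 and -0.72 after irradiation and -0.47 and -0.66 between the controls.

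Sptan1, the alpha spectrin of non-erythroid cells, ran from 339 to 401 CPM after carbon ions and from 406 to 517 CPM after photons, without overlap, with a log2 fold change of -0.34 (SE 0.07, adjusted p of 0.0416). Its difference between the controls was -0.37. Plcg1, a phospholipase downstream of growth factor receptors, ran from 78.3 to 93.4 CPM and from 97.2 to 136 CPM, also without overlap, with a value of -0.39. Dock9, an activator of Cdc42, had medians of 58.4 and 97.9 CPM and fell by 0.68 on the log2 scale, and it differed between the controls by -0.46. Scarf2, a scavenger receptor family member, Nr4a2, an orphan nuclear receptor, and Bcl9, a coactivator of beta-catenin, fell by 0.57, 0.52 and 0.38. Between the controls Plcg1, Scarf2, Nr4a2 and Bcl9 differed by -0.24, -0.42, -0.37 and -0.14. These control differences did not pass, with adjusted p values from 0.0717 to 0.357.

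Some lower genes did not pass between the controls. Shisa6, known as a partner of AMPA receptors, had medians of 30.3 and 98.6 CPM (-1.47, SE 0.31, adjusted p of 0.0485), with an adjusted p of 0.198 between the controls. Plce1, a phospholipase, ran from 125 to 214 CPM after carbon ions and from 202 to 288 CPM after photons (-0.53, adjusted p of 0.0437), whereas the control medians were 188 and 187 CPM. Adgrl3, an adhesion receptor, fell by 0.47 with control medians of 117.3 and 109 CPM. Lrmda, scarce at 0.0648 to 0.513 CPM after carbon ions, ran from 0.669 to 1.91 CPM after photons without overlap, and had too few counts to be tested between the controls. It passed the count filter through the photon-irradiated group, where it is high, so its log2 fold change of -2.25 (adjusted p of 0.0135) is given as a description only. The difference of differences did not pass for any of these, with adjusted p values of 0.444 for Shisa6, 0.261 for Plce1, 0.170 for Adgrl3 and 0.153 for Lrmda.

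Large chromatin regulators were slightly lower after carbon ions, without a member passing. Of 25 genes 13 were lower and 0 higher at an unadjusted p under 0.05, with a median of -0.21. Between the controls the median of the list was -0.11, with 5 members passing as lower in the carbon-ion arm and 2 as higher. Kmt2a, a histone H3 methyltransferase, ran from 158 to 221 CPM after carbon ions and from 209 to 267 CPM after photons (-0.38, adjusted p of 0.0565). Ash1l, another methyltransferase, had medians of 258 and 336 CPM (adjusted p of 0.0667). These are long genes, and with the length trend removed the median of the list was -0.07 with 5 members lower at an unadjusted p under 0.05.

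Stromal lists showed little between the irradiated groups. The median was 0.10 over 23 fibroblast markers, 0.00 over 19 collagens and -0.01 over 16 endothelial markers, with 0 members passing in each. Between the controls the same lists had medians of -0.36, -0.51 and -0.38, with 4, 6 and 4 members lower in the carbon-ion arm. Skeletal muscle markers were the widest apart, with a median of 2.97 over 19 genes, all higher at an unadjusted p under 0.05, and 0 passing. Myl1, a light chain of fast muscle myosin, ran from 0.489 to 171 CPM after carbon ions and from 0.183 to 16.7 CPM after photons, so the groups overlapped. With M-titled libraries alone the median was 1.49 and 0 muscle markers had an unadjusted p under 0.05.

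More genes passed between the untreated tumours of the arms than between the irradiated ones. Of 19248 genes tested between the controls 2219 passed (11.5%), 1318 higher (6.85%) and 901 lower (4.68%) in the carbon-ion arm. Without adjustment 5154 (26.8%) had a p under 0.05, 2766 higher (14.4%) and 2388 lower (12.4%). Of the 57 genes that passed between the irradiated groups, 54 were tested in the controls and 22 passed there, all in the same direction. These are 38.6% of the irradiated list and 0.991% of the control list. The difference of differences passed for 16 of 20474 genes (0.0781%), 7 higher (0.0342%) and 9 lower (0.044%), and 3 of these were among the 57. Without adjustment 2670 (13.0%) had a p under 0.05, 1601 higher (7.82%) and 1069 lower (5.22%). The 3 that passed and were among the 57 were Dynlt1b, Cebpe and Gm49980, an unnamed gene at medians of 2.13 CPM after carbon ions and 0.705 after photons against 2.84 and 3.38 CPM in the controls. Cbx7, a Polycomb subunit, passed as well from the other side: its log2 difference was 0.08 between the irradiated groups and 1.25 between the controls, a difference of -1.17 with an adjusted p of 0.00664. Cbx7 had medians of 41.2, 38.1 and 40.6 CPM in the carbon-irradiated, photon-irradiated and carbon-ion control libraries and 16.6 CPM in the photon controls, which were the low group.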

How the data were processed

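Per the labels' protocols, RNA of tumour tissue was prepared with a stranded mRNA kit. The authors deposited a table of estimated counts per gene symbol for 55103 genes and 32 libraries. Per the submitters' processing notes, the tools were FastQC 0.12.0, Trimmomatic 0.32 and RSEM 1.3.3 with mm10. The annotation, aligner and strand setting are not given in the sources used here, so a gene and its overlapping or antisense neighbour may share reads. Of the deposited values above 0, 0.279% were whole within 0.001, and values were rounded before testing. Whether the values were rescaled after estimation is not given in the sources used here, so the printed totals are those of the table and may not be read numbers. Libraries were grouped by the treatment label. Replicate numbers follow accession order and pair nothing.

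The 8 carbon-irradiated and 8 photon-irradiated libraries were compared with edgeR 4.0.16 in R 4.3.3 (TMM scaling, filterByExpr with a minimum of 10 counts, quasi-likelihood test, Benjamini-Hochberg adjustment over all genes tested, threshold 0.05). The controls, and the difference of differences over all 32 libraries, were tested the same way. The SE is the log2 fold change divided by the square root of the F statistic. Printed CPM are scaled over all 32 libraries, and list levels use log2(CPM + 1). The steps were tested on simulated data. In each irradiated group all 28 pairs of libraries differed beyond sampling noise, so none of these pairs was a repeat deposit. Pairs of controls and pairs across groups were not checked this way, and libraries from 1 tumour cannot be recognised by it. Alternatives were DESeq2 1.42.0, limma 3.58.1 with voom, other scalings and filters, M-titled libraries alone and leaving out each library. Leaving out the end libraries, a muscle term and removal of the length trend were added after the data were seen. Positions and exonic lengths come from GENCODE (GRCm38) and promoters from RefSeq (GRCm38.p6).

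Named genes were the 10 higher and 10 lower genes with the smallest p among named genes with a mean log2 CPM of at least 2, the 6 with the highest and lowest fold change whose libraries all lay on their own side of the other group's median, called list members, and fixed p53, Dynlt1, Cbx7, Epcam and keratin genes. The comparison, members and lists were chosen with earlier results of these data known. Genes named outside the rule, such as Lrmda, Cybb, Fcgr3, Mpeg1, Ier5, Plce1, Adgrl3, Scarna10, Gm49980 and list examples that did not pass, and the p53 half-site search, were chosen after their values were seen.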

Additional observations from a re-analysis of the deposited data

Results flagged for a closer look

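For 172 groups of 8 values, the highest or lowest value was set against the others with Dixon's criterion at the 95% level, and 14 stood apart. Chance alone marks about 1 group in 20. In carbon-irradiated replicate 3, Tmem44 stood apart at 7.502 CPM, Shisa6 at 86.4 CPM and the neutrophil list at a mean log2(CPM + 1) of 3.06, each above the rest of its group. Replicate 2 stood apart for Cox7b at 158 CPM, Dynlt1a at 9.45 CPM and Dynlt1f at 56.7 CPM. Replicate 8 stood apart for the MHC class I list at 6.34 and the mesenchymal transition list at 5.81.

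Among the photon-irradiated libraries, Cdkn1a was low at 25.1 CPM in replicate 1, and Epcam was high at 75.2 CPM in replicate 7. The lysosomal list was low at 6.28 in replicate 3. Replicate 5 stood apart for the endothelial list at 5.60 and the pericyte list at 5.796, and replicate 2 for the skin keratinocyte list at 2.82.

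The difference between the arms after irradiation differed from that in the controls, by the test of the difference itself in edgeR, for Dynlt1b (0.90 on the log2 scale, adjusted p of 0.0384), Cebpe (1.96, adjusted p of 0.0119), Gm49980 (2.08, adjusted p of 0.00818), Ctsc (0.66, adjusted p of 0.0320), Tnip3 (1.29, adjusted p of 0.0320) and Cbx7 (-1.17, adjusted p of 0.00664).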

How the results depend on the processing

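Between the irradiated groups, the 57 genes became 1173 with DESeq2, 97 with upper-quartile scaling and 1041 in the fit of all 32 libraries. Without both libraries at the ends of the first component the count was 0 (2466 at an unadjusted p under 0.05), and with the skeletal muscle term 0 (3418), where Dynlt1b had a log2 fold change of 0.93 beside 0.96. Leaving out 1 library gave 4 to 857 genes. It gave 4, 5, 857, 21, 6 and 272 without carbon-irradiated replicates 1, 2, 3, 5, 6 and 8, and 5, 6, 9, 30, 9, 5, 8 and 29 without photon-irradiated replicates 1 to 8. RLE scaling, other filters, the robust prior, voom weights, M-titled libraries alone and length removal gave 40 to 71, but the M-titled fit shared 26 of the 57 and voom 37. The 2219 control genes became 708 with M-titled libraries alone, and 1623 to 2598 with 1 library left out. The 16 genes of the difference of differences became 270 with DESeq2, 94 with upper-quartile scaling, 4 without a filter, 62 with the CPM filter, 1 with M-titled libraries alone, and 5 to 108 with 1 library left out. The genes chosen by the naming rule that passed kept their direction in all of their fits, whereas Mdm2 and Cbx7 kept theirs in 28 of 29 and Dynlt1c in 26 of 29, none of which passed. The cause was not tested. For Cebpe, Lrmda and other genes near 1 CPM, depth limits the precision. No paired analysis was possible because replicate numbers follow accession order and tie no library to another.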
